A study of Mus musculus with 8 samples.

Results

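The genes described here handle iron and related metals. They are 10 genes taken by symbol from the 20701 gene symbols of the count table: Hfe2, Slc39a8, Slc39a14, Trf, Tfrc, Tfr2, Slc11a2, Slc40a1, Fth1 and Ftl1. Where a symbol had several RefSeq transcripts, only the most abundant one entered. The choice of genes was made with the values of these same libraries known, and Hfe2, Slc39a8 and Tfrc were picked for how they differed between the groups, so their values are given as a description, and where it is said that they passed a threshold nothing is drawn from it. All 10 passed the filter on low counts and were fitted together with the other genes, 13769 in all.

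Each RNA library came from 1 mouse embryo of strain C57BL/6 at stage E10.5, from which outflow tract plus right ventricle (OFT/RV) had been cut out. The 4 control embryos (CTRL) were wild type. The 4 Isl1_hypo embryos were hypomorphs for Isl1, the LIM-homeodomain transcription factor gene of second heart field progenitors, and carried alleles that lower Isl1 expression without abolishing it. The dissected piece holds muscle, endothelium, other cells and blood together, so for every gene fewer cells of a type and less RNA per cell cannot be told apart.

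Libraries held between 29748458 and 46678973 counts over genes (CTRL) and between 18422245 and 33050298 (Isl1_hypo). Isl1, the targeted gene, lay between 29.6 and 61.5 CPM (counts scaled to library size) in CTRL and between 6.86 and 12.7 in Isl1_hypo, with a log2 fold change of −2.29 (SE 0.256; edgeR quasi-likelihood test, adjusted p = 0.00770). Over all 13769 genes 37 passed an adjusted p of 0.05, 20 of them higher (0.145%) and 17 lower (0.123%) in Isl1_hypo. Summed cardiac muscle markers, which include Tnnt2, Myh7 and Nkx2-5, stood at 27842 to 33279 CPM in CTRL and 25562 to 29772 in Isl1_hypo, and none of the 12 passed edgeR's adjusted threshold. At an unadjusted p under 0.05, 3 of the 12 were lower and 1 higher: without overlap between groups, Ttn had a log2 fold change of −0.90, Myh7 of −0.49 and Pln of 0.45. Endothelial markers summed to 922 to 1055 and 635 to 947 CPM, with 0 of 7 passing edgeR's adjusted threshold and 2 lower without overlap at an unadjusted p under 0.05, Pecam1 (−0.58) and Cdh5 (−0.54). Of all genes 6.17% were lower and 5.69% higher at that p. Summed Y-linked genes ran from 0.0214 to 204 CPM in CTRL and from 0.337 to 277 in Isl1_hypo, and they were above 10 CPM in 1 of 4 CTRL and 3 of 4 Isl1_hypo libraries, so embryonic sex was unevenly spread over the groups. With the Y-linked genes as a covariate 2 genes in place of 37 passed, and the part of sex in the values of the 10 genes was not tested.

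As background, iron travels in blood bound to transferrin and enters cells when the transferrin receptor takes the complex up. Inside the cell divalent metal transporters move it across membranes, ferritin stores it, and ferroportin is the one known route out. Hepcidin, a liver hormone, closes that exit, and its expression is raised through a bone morphogenetic protein signal for which hemojuvelin is a co-receptor. Erythroid cells take up more iron than other cells because they make heme, while heart muscle needs it for mitochondria and myoglobin.

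Much of this control acts on messenger RNA. Iron regulatory proteins bind a stem-loop called the iron-responsive element when iron is scarce; in the 5′ UTR this blocks translation, and in the 3′ UTR of the transferrin receptor it protects the transcript from decay. The element has an unpaired C, 5 paired bases, a loop of 6 bases that opens with CAGTG, and 5 bases that close the stem. It was searched in these letters, with N for the free bases and all 5 pairs formed (G-T pairs allowed), in the annotated coding transcripts of mouse build mm9, on the sense strand only, since it is a structure of the transcript. A match lay in a UTR of 0.690% of the 22611 genes searched, 33 of them in the 5′ UTR and 124 in the 3′ UTR. Of the 10 iron and metal handling genes, 4 held a match, 7 sites in all. They are shown, each as 30 bases with the loop in capitals. The part of the element in the transcript levels given below was not tested.

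Tfrc site 1, 3′ UTR: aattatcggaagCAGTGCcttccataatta
Tfrc site 2, 3′ UTR: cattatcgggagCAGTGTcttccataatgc
Tfrc site 3, 3′ UTR: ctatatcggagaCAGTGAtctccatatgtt
Tfrc site 4, 3′ UTR: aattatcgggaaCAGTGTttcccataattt
Slc40a1, 5′ UTR: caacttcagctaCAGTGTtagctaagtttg
Fth1, 5′ UTR: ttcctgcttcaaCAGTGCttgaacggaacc
Ftl1, 5′ UTR: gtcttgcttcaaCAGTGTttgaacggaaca

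The 4 sites of Tfrc lie at chr16:32631305-32631334, chr16:32631684-32631713, chr16:32631749-32631778 and chr16:32631796-32631825 on the plus strand, from 883 to 1374 bases after the stop codon. The Slc40a1 site lies at chr1:45982309-45982338 on the minus strand. The Fth1 site lies at chr19:10057222-10057251 on the plus strand and the Ftl1 site at chr7:52715148-52715177 on the minus strand. The other 6 genes had no match to these letters in the annotated transcripts. That does not show that they lack the element. Elements with another loop, an extra bulge or fewer pairs would be missed, also in the 4 genes with a match. A match is a description of sequence and was not tested for binding.

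**Figure D1:**
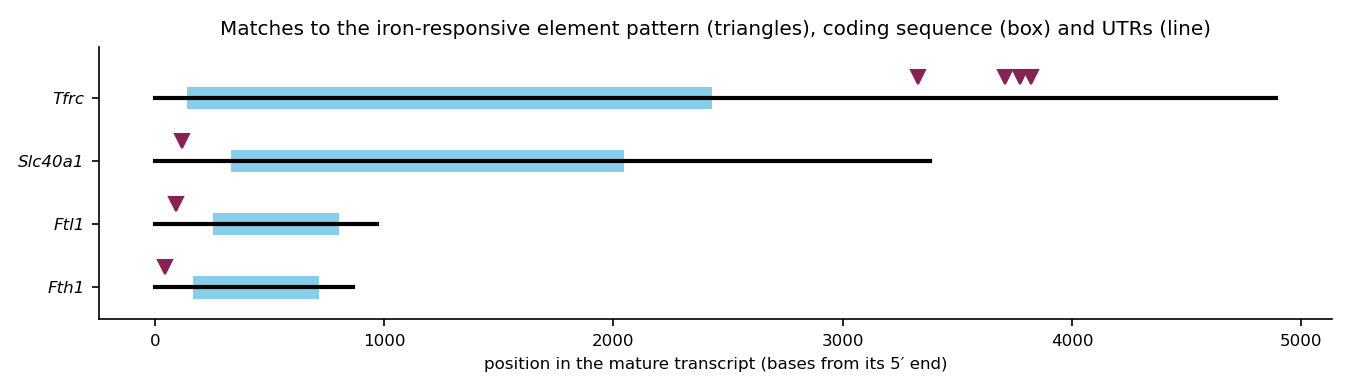
Mature transcripts of the 4 genes with a match to the iron-responsive element pattern, drawn to scale in bases from the 5′ end; the box is the coding sequence, the line the UTRs and each triangle a match. Tfrc carried its 4 sites after the coding sequence, and Slc40a1, Fth1 and Ftl1 carried 1 each before it.

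The comparison asked which of these genes stood at another level in the OFT/RV of embryos with reduced Isl1. Hfe2 and Slc39a8 were higher in all 4 Isl1_hypo libraries than in any CTRL library, and of the 10 genes these 2 passed the adjusted threshold of 0.05. Among all genes 0.269% passed it, and 8.5% had groups that did not overlap. Because these 2 were chosen from this contrast, nothing is read from their count. Values above 0 on the log2 scale were found for 8 of the 10 genes and below 0 for Tfrc and Slc39a14. Over all genes 7007 of 13769 were above 0. The median of the 10 was 0.37, against 0.0057 over all 13769 genes. Since the 10 were chosen with these values known, nothing is read from that difference. Of the 7 genes not chosen for their pattern none passed the test, and in each of the 7 the groups overlapped. An unadjusted p under 0.05 was found for 2 of those 7, Tfr2 and Fth1, where 11.9% of all genes had one.

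**Figure D2:**
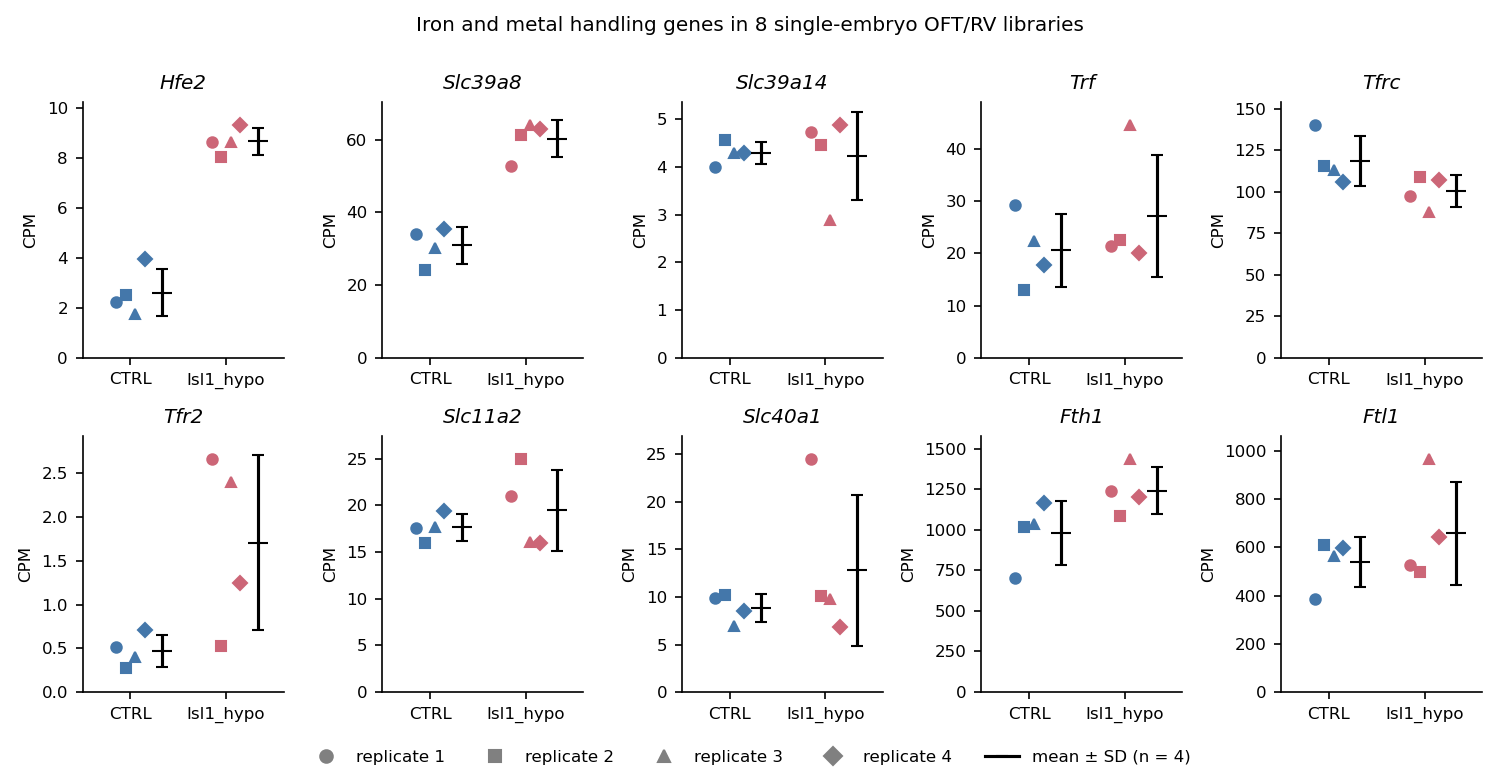
CPM of the 10 genes in each library, 1 point per embryo with the shape giving the replicate number, and the mean ± SD (n = 4) beside each group; every vertical axis starts at 0. Hfe2 and Slc39a8 separate the groups, whereas the points of the other 8 genes overlap.

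Hfe2 (NM_027126; mm9 chr3:96329108-96333139, plus strand) encodes hemojuvelin, the co-receptor that feeds the hepcidin pathway in liver and is also made in skeletal and heart muscle. Its level was 2.24, 2.51, 1.74 and 3.93 CPM in CTRL 1 to 4 and 8.64, 8.02, 8.63 and 9.31 CPM in Isl1_hypo 1 to 4. These CPM stand on 70 to 184 counts in CTRL and 159 to 273 in Isl1_hypo. The highest control library was CTRL 4, at less than the lowest Isl1_hypo library, and the Isl1_hypo libraries lay closer together than the controls. The means were 2.61 ± 0.941 and 8.65 ± 0.525 CPM (SD, n = 4 each), a log2 fold change of 1.73 (SE 0.275, 95% interval 1.12 to 2.33), which is 3.31-fold.

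Slc39a8 (NM_001135150; mm9 chr3:135488243-135551536, plus strand) encodes ZIP8, an importer of zinc, manganese and iron at the cell surface. It stood at 34.1, 24.2, 30.1 and 35.4 CPM in CTRL 1 to 4 and at 52.8, 61.2, 64.1 and 63.0 CPM in Isl1_hypo 1 to 4. The lowest Isl1_hypo library, replicate 1, was above the highest control, and the spread was alike in the groups. The means were 31.0 ± 5.06 and 60.3 ± 5.13 CPM, a log2 fold change of 0.96 (SE 0.143, 95% interval 0.65 to 1.27). The 3 transcripts of Slc39a8 in the table share nearly all their reads, and each gave a log2 fold change of 0.97 when all transcripts were fitted.

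Slc39a14 (mm9 chr14:70703274-70751232, minus strand) encodes ZIP14, the nearest relative of ZIP8, which also takes up iron not bound to transferrin. It stood at 4.00, 4.55, 4.30 and 4.30 CPM in CTRL and at 4.72, 4.46, 2.88 and 4.88 CPM in Isl1_hypo. Isl1_hypo 3 was the low library and the other 7 lay close together. The log2 fold change was −0.02 (SE 0.256, 95% interval −0.58 to 0.54; edgeR, adjusted p = 0.983), and 0.13 without Isl1_hypo 3. Per length, the ratio of Slc39a8 to Slc39a14 in RPKM (reads scaled for transcript length and depth) was 7.42 to 11.9 in CTRL and 15.6 to 31.1 in Isl1_hypo. The groups did not overlap in that ratio, which follows from Slc39a8.

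Trf (mm9 chr9:103106331-103132774, minus strand) encodes transferrin, the iron carrier of plasma. It stood at 29.2, 12.9, 22.3 and 17.8 CPM in CTRL and at 21.5, 22.6, 44.5 and 20.1 CPM in Isl1_hypo. Isl1_hypo 3 was the only library outside the range of the controls, and the log2 fold change of 0.41 (SE 0.295, 95% interval −0.24 to 1.05; edgeR, adjusted p = 0.605) became 0.059 without it. An annotated read-through transcript joins Trf to the neighbouring Srprb on the same strand, and their shared exons cannot be told apart in these counts. Of the markers of liver and yolk sac, which make plasma proteins, Fgb and Serpina1a had 0 counts in all 8 libraries, Alb had at most 1 count and Afp at most 12, whereas Apoa2 reached 375, Cubn 203 and Amn 155. The summed level of the 10 liver and yolk sac markers was 11.1 to 17.6 CPM in CTRL and 15.4 to 20.3 in Isl1_hypo, with none of the 4 that were tested passing the test. Amn was higher in Isl1_hypo without overlap (log2 fold change 0.77; edgeR, unadjusted p = 0.0218, adjusted p = 0.322).

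Tfrc (mm9 chr16:32609006-32632880, plus strand) encodes transferrin receptor 1, which erythroid precursors carry in large numbers and which dividing cells of many kinds also need. It stood at 140, 115, 113 and 106 CPM in CTRL 1 to 4 and at 97.4, 109, 88.0 and 107 CPM in Isl1_hypo 1 to 4. The groups overlapped, since 2 Isl1_hypo libraries lay above the lowest control, CTRL 4. The means were 119 ± 15.03 and 100.4 ± 9.71 CPM, a log2 fold change of −0.24 (SE 0.117, 95% interval −0.50 to 0.02). The higher Hfe2 and Slc39a8 of Isl1_hypo thus stood beside a Tfrc whose groups overlapped. In RPKM the ratio of Hfe2 to Tfrc was 0.0373 to 0.0903 in CTRL and 0.178 to 0.238 in Isl1_hypo.

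Tfr2 (mm9 chr5:138011079-138028709, plus strand) encodes transferrin receptor 2, an iron sensor of liver and erythroid cells. It was the least abundant of the 10, with 16, 11, 16 and 33 counts in CTRL and 49, 14, 76 and 36 counts in Isl1_hypo. In CPM these are 0.512, 0.271, 0.397 and 0.705 in CTRL and 2.66, 0.525, 2.40 and 1.245 in Isl1_hypo. Isl1_hypo 2 lay within the control range and the other 3 above it. Its log2 fold change was 1.84 (SE 0.621, 95% interval 0.48 to 3.21; edgeR, unadjusted p = 0.0123, adjusted p = 0.296), near that of Hfe2 but with a wider error. Its 4 transcripts gave values from 1.81 to 1.85.

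Slc11a2 (mm9 chr15:100218329-100255503, minus strand) encodes DMT1, the proton-coupled importer that also carries iron out of endosomes. It stood at 17.6, 15.9, 17.7 and 19.4 CPM in CTRL and at 21.0, 25.0, 16.1 and 15.9 CPM in Isl1_hypo. Isl1_hypo 1 and 2 were above every control, and Isl1_hypo 3 and 4 lay at the lower end of the controls. The log2 fold change was 0.14 (SE 0.173; edgeR, adjusted p = 0.775) and −0.01 without Isl1_hypo 2. The gene has a transcript of 4355 bases and one of 3004 bases in the table. The count of the longer over the shorter was 0.890 to 1.30 in CTRL and 1.02 to 1.21 in Isl1_hypo, with overlapping groups. Reads in exons that both forms share count for each, so this ratio can show little of a shift between them. Gm5475 overlaps its 5′ end on the opposite strand, and since strand was ignored in counting, reads of the overlap cannot be assigned.

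Slc40a1 (mm9 chr1:45964915-45982439, minus strand) encodes ferroportin, the iron exporter that hepcidin closes. It stood at 9.85, 10.2, 6.93 and 8.49 CPM in CTRL and at 24.5, 10.1, 9.83 and 6.85 CPM in Isl1_hypo. A single library, Isl1_hypo 1, was high, and the other 3 lay between 6.85 and 10.1, near the controls. The log2 fold change was 0.53 (SE 0.343, 95% interval −0.23 to 1.28; edgeR, adjusted p = 0.566) and 0.01 without Isl1_hypo 1. Macrophages, which recycle red cells and carry much ferroportin, had summed markers of 20.1 to 38.2 CPM in CTRL and 22.9 to 40.0 in Isl1_hypo; 7 of the 9 tested had a log2 fold change below 0, among them Csf1r at −0.86 and C1qa at −1.26, and none passed the test. Lyz2, which gave much of the sum, went the other way without overlap, at 1.57 (edgeR, adjusted p = 0.0824). Isl1_hypo 1 had 36.2 CPM of these markers and Isl1_hypo 4, the library with the least Slc40a1, had 40.0.

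Fth1 (mm9 chr19:10057193-10059582, plus strand) and Ftl1 (mm9 chr7:52713314-52715254, minus strand) encode the heavy subunit of ferritin, which oxidizes iron for storage, and the light subunit, which helps to build the mineral core. Fth1 stood at 705, 1014, 1037 and 1165 CPM in CTRL and at 1239, 1086, 1435 and 1201 CPM in Isl1_hypo. Its lowest library was CTRL 1 and its highest Isl1_hypo 3, and only Isl1_hypo 2 lay below the highest control. The means were 980 ± 195 and 1240 ± 145 CPM, a log2 fold change of 0.34 (SE 0.151, 95% interval 0.01 to 0.67; edgeR, unadjusted p = 0.0451, adjusted p = 0.406).

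Ftl1 stood at 387, 611, 564 and 599 CPM in CTRL and at 528, 498, 966 and 642 CPM in Isl1_hypo. Isl1_hypo 3 was again the highest and CTRL 1 the lowest, with the others close together. Its log2 fold change was 0.29 (SE 0.211; edgeR, adjusted p = 0.614) and 0.04 without Isl1_hypo 3. The RPKM ratio of Fth1 to Ftl1 was 1.71 to 2.001 in CTRL and 1.53 to 2.41 in Isl1_hypo, with overlapping groups. Both genes have near-identical processed copies elsewhere in the genome, and reads that match several copies make their counts uncertain.

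Per length, ferritin was far above the rest. The mean level in CTRL was 641 RPKM for Fth1, 343 for Ftl1, 14.9 for Tfrc, 5.46 for Trf, 5.40 for Slc39a8, 2.48 for Slc11a2, 1.61 for Slc40a1, 0.793 for Hfe2, 0.534 for Slc39a14 and 0.0813 for Tfr2. Neighbours in this order overlapped between libraries for Trf and Slc39a8 and for Hfe2 and Slc39a14, and not for the other 7 pairs. In Isl1_hypo the mean of Slc39a8, 10.3 RPKM, stood above that of Trf, 7.04 RPKM, though the ranges of this pair still overlapped. Hfe2 stood at 2.58 RPKM in Isl1_hypo, above Slc40a1 at 2.30 RPKM, again with overlapping ranges, and no longer overlapped with Slc39a14 at 0.520 RPKM.

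Markers of blood had higher means in Isl1_hypo, with a globin share whose groups overlapped. Globin genes took 0.212%, 0.273%, 0.465% and 1.19% of the counts in CTRL 1 to 4 and 1.86%, 1.18%, 2.44% and 1.53% in Isl1_hypo 1 to 4. CTRL 4 overlapped with Isl1_hypo 2, and the difference in mean log2 share was 2.0 (exact permutation test, two-sided, p = 0.0571 over 70 assignments). With 1 library left out in turn it ranged from 1.67 to 2.50, with 35 assignments each. The exact permutation p then ranged from 0.0286, without the overlapping CTRL 4, to 0.0857, without Isl1_hypo 1, 3 or 4. The value of 0.0286 is the smallest that 35 assignments allow. The 10 other erythroid markers summed to 54.3 to 180 CPM in CTRL and 191 to 408 in Isl1_hypo without overlap; all 10 had a log2 fold change above 0 and 1 of them, the red cell membrane gene Epb42, passed the test. Among the globins, Hba-a1 and Hba-a2 carry the same counts in the table, so the share counts some reads more than once.

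Tfrc, named above for its use by red cell precursors, was not higher in the libraries with more of this blood signal. In each group the library with the most globin, CTRL 4 and Isl1_hypo 3, had the lowest Tfrc and the highest Fth1. Over the 8 libraries, with group means removed, the Pearson r of Tfrc with the erythroid markers was −0.91 (Spearman −0.93, and r −0.90 without the 2 libraries farthest out). With globin it was −0.69 (Spearman −0.79), and −0.34 without 2 libraries. Fth1 went the other way, with an r of 0.88 with the erythroid markers (Spearman 0.88, and r 0.85 without 2 libraries). Tfrc and Fth1 had r −0.97, which stayed at −0.94 without 2 libraries. These values describe 8 libraries that share depth and blood content within each, and they were picked among 95 pairs of genes and markers; no p is given.

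With group means removed in the same way, the r of Hfe2 with globin was 0.60, with a Spearman value of 0.24 and an r of −0.39 without the 2 farthest libraries. For Slc39a8 it was 0.59, with a Spearman value of 0.52 and 0.30 without 2 libraries. With the erythroid markers the r was 0.56 for Hfe2 and 0.28 for Slc39a8. With the cardiac muscle markers the r was −0.03 for Hfe2 and 0.11 for Slc39a8. Set against the summed cardiac muscle markers, Hfe2 made 0.0522 to 0.121 CPM per 1000 CPM of marker in CTRL and 0.279 to 0.338 in Isl1_hypo. For Slc39a8 the same measure was 0.812 to 1.23 in CTRL and 2.07 to 2.32 in Isl1_hypo. Neither gene overlapped between groups in it, which follows from the choice of these 2 genes, so nothing is read from it.

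With the mean log2 level of globin as a covariate across all libraries, the log2 fold change was 1.29 (SE 0.403) for Hfe2 and 0.73 (SE 0.223) for Slc39a8, lower than without it. It was −0.01 (SE 0.205) for Fth1, −0.14 (SE 0.328) for Ftl1 and 0.00 for Tfrc (SE 0.176). With this covariate 0 of 13769 genes passed edgeR's adjusted p of 0.05, 504 had an unadjusted p under 0.05, and the standard errors were wider. The part of blood and of muscle content in the levels of Hfe2, Slc39a8 and the other 8 genes was not tested.

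**Figure D3:**
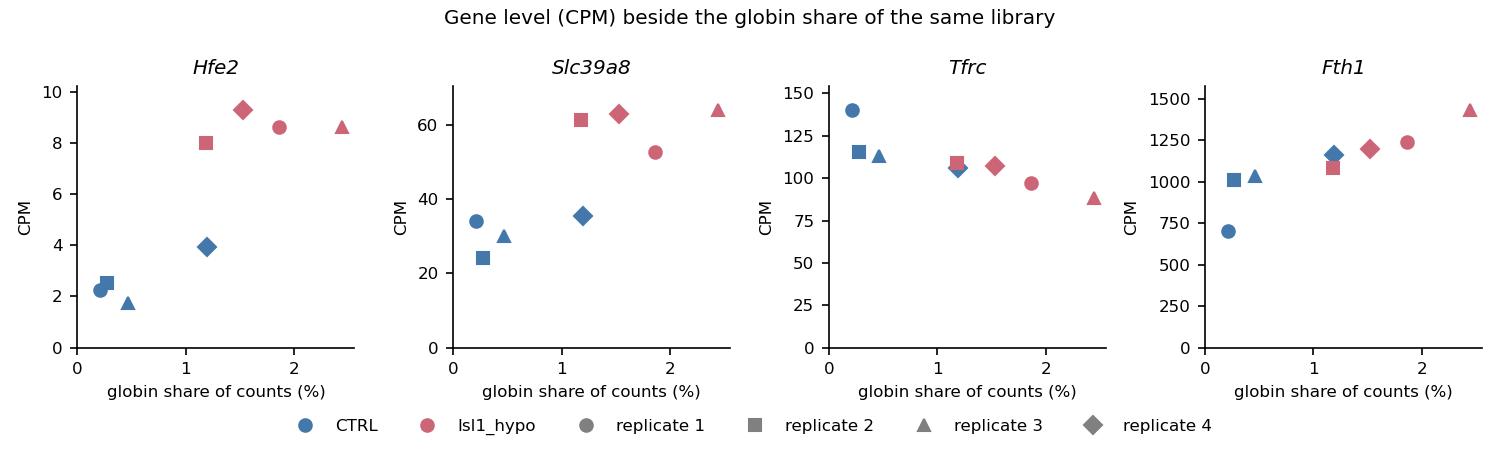
CPM of Hfe2, Slc39a8, Tfrc and Fth1 against the globin share of counts (percent), 1 point per library, color for group and shape for replicate; the axes start at 0. The Isl1_hypo libraries lie to the right, at 1.18% to 2.44%, and CTRL 4, at 1.19%, is the control among them; the lowest Tfrc and the highest Fth1 of each group belong to its library with the most globin.

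The genes whose library-to-library pattern was most like these 3 were sought among 10743 genes of at least 5 CPM, by Pearson r over the 8 libraries with group means removed. For Hfe2 they were Ripk2 (0.976), Gimap4 (0.951), Ell2 (0.942), Tnfrsf10b (0.930) and Rfwd3 (0.928). For Slc39a8 they were Top1 (0.955), Ctnnal1 (0.952), Arhgef15 (0.951), Gimap9 (0.948) and Mall (0.944). For Tfrc they included Nfat5 (0.990), Iars2 (0.983), Gigyf2 (0.981) and Zbtb48 (0.981). These are the highest of many values over few libraries, and no other listed gene of iron or metal handling was among those named.

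Beyond the 10, a list of 102 further iron and metal genes was taken by role, of which 98 were in the table and 84 were tested. None passed edgeR's adjusted p of 0.05. At an unadjusted p under 0.05 there were 10 (11.9% of the list, as over all genes), 7 of them higher and 3 lower in Isl1_hypo, against the 5.69% and 6.17% of all genes given above. DESeq2 and limma-voom each called 1, in both cases Slc25a37, where they called 319 and 134 of all genes tested. Of the 84, 57 had a log2 fold change above 0 and 27 below, with a median of 0.06. The groups did not overlap in 4 of the 84 (4.76%, against 8.5% of all genes).

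Slc25a37, mitoferrin 1, carries iron into the mitochondria of erythroid cells. It stood at 22.4, 12.3, 18.9 and 22.9 CPM in CTRL and at 48.0, 30.7, 76.8 and 43.6 CPM in Isl1_hypo, without overlap and with its highest value in Isl1_hypo 3, the library with the most globin. The log2 fold change was 1.38 (SE 0.272; edgeR, adjusted p = 0.0662). The erythroid markers given above were also higher in Isl1_hypo, and their part in it was not tested. Within Isl1_hypo the libraries fell in the same order for Slc25a37 and for the erythroid sum (replicates 3, 1, 4 and 2 from the highest), and CTRL 4 was the highest control in both, while CTRL 1, with 22.4 CPM of Slc25a37, had the lowest erythroid sum. Its role held 12 tested genes, 9 above and 3 below 0 (7 and 5 with upper quartile size factors). The most abundant over all 8 libraries, the endolysosomal channel gene Mcoln1, had 44.8 and 45.1 CPM in the CTRL and Isl1_hypo means. In Isl1_hypo alone Slc25a37 had a higher mean, 49.8 CPM.

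The hepcidin axis, in which Hfe2 acts, had 8 tested genes, 7 of them with a log2 fold change below 0. Furin, a protease that cuts hemojuvelin and pro-hepcidin, stood at 102, 69.3, 64.3 and 67.6 CPM in CTRL and at 51.6, 55.4, 52.1 and 53.4 CPM in Isl1_hypo, with no overlap (log2 fold change −0.51, SE 0.149; edgeR, adjusted p = 0.216). Bmp6, the ligand that raises hepcidin, had a log2 fold change of −0.23 (SE 0.249, edgeR adjusted p = 0.749). Hamp, hepcidin itself, had at most 3 counts in any library, too few to be compared. The libraries that differed in Hfe2 therefore held almost no transcript of the hormone.

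Among the relatives of Slc39a8 and Slc39a14, 11 other genes of the ZIP family of zinc and metal importers were tested, 6 above and 5 below 0. Slc39a7, which releases zinc from the endoplasmic reticulum, was the most abundant over all 8 libraries. Its CTRL and Isl1_hypo means were 244 and 206 CPM (log2 fold change −0.24, SE 0.101, edgeR adjusted p = 0.375). In Isl1_hypo alone Slc39a1 had a higher mean, 241 CPM. The ZnT exporters had 9 tested genes, all above 0. Slc30a10, a manganese exporter, stood at 1.82, 0.689, 0.695 and 0.406 CPM in CTRL and at 4.45, 2.40, 5.18 and 1.07 CPM in Isl1_hypo, with 1 Isl1_hypo library inside the control range (log2 fold change 1.87, SE 0.602; edgeR, adjusted p = 0.282). Slc30a9, the most abundant, had a log2 fold change of 0.02. Of 13 genes of metallothionein, copper and manganese handling none had an unadjusted p under 0.05. The copper chaperone gene Atox1, the most abundant over all 8 libraries, had a log2 fold change of −0.12. In Isl1_hypo alone Slc31a1 and Cox17 had higher means, 142 and 129 CPM against 128 CPM for Atox1.

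Of the 6 tested genes that sense and store iron 5 had a log2 fold change above 0 and none passed the adjusted threshold. The iron regulatory protein genes Aco1 and Ireb2, whose products bind the stem-loops shown above, had log2 fold changes of 0.21 (SE 0.115, edgeR adjusted p = 0.493) and 0.07 (SE 0.106, edgeR adjusted p = 0.826). Fbxl5, which targets the second of these for degradation, had 0.26 (SE 0.116, edgeR unadjusted p = 0.0490, adjusted p = 0.418), and the iron chaperone gene Pcbp1 had −0.14. In heme transport and breakdown, Lrp1, a receptor that takes up hemopexin-bound heme, had −0.65 (SE 0.211, edgeR adjusted p = 0.283) and Blvrb, a biliverdin reductase of red cells, 0.54 (SE 0.194, edgeR adjusted p = 0.309), while Hmox2 had −0.05. Of the 17 iron-sulfur cluster genes 15 were above 0, with the assembly factor Isca1 at 0.28 and Ciao1 at 0.24 (edgeR adjusted p = 0.395 and 0.399) and the chaperone Hspa9 at 0.02.

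**Figure D4:**
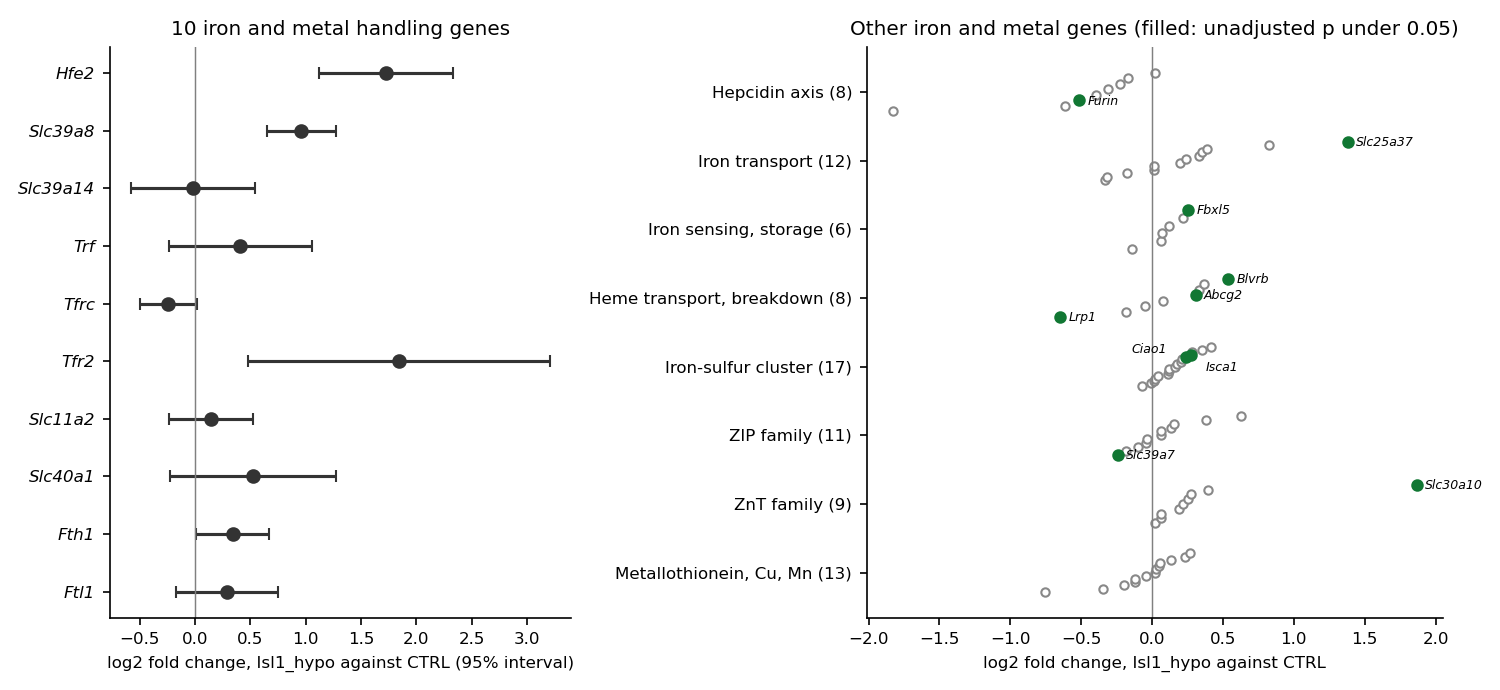
Log2 fold change of Isl1_hypo against CTRL. On the left the 10 genes with their 95% intervals, which leave out 0 for Hfe2, Slc39a8, Tfr2 and Fth1; on the right the 84 tested genes of the wider list by role, with the number tested in brackets and genes of unadjusted p under 0.05 filled and named.

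Under 19 alternative fits, which changed the normalization, the test, the filter, the transcript, the covariates or the libraries, the log2 fold change of Hfe2 ranged from 1.29 to 1.998 and that of Slc39a8 from 0.73 to 1.03, with the lowest of each under the globin covariate. Their direction follows from how they were chosen, since their groups do not overlap. Neither stayed past the adjusted threshold with the globin, cardiac muscle or Y-linked covariate or the replicate block, nor in most fits with 1 library left out. The values of Tfr2 stayed above 0.86 in all 19, and in none did it pass the test.

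**Figure D5:**
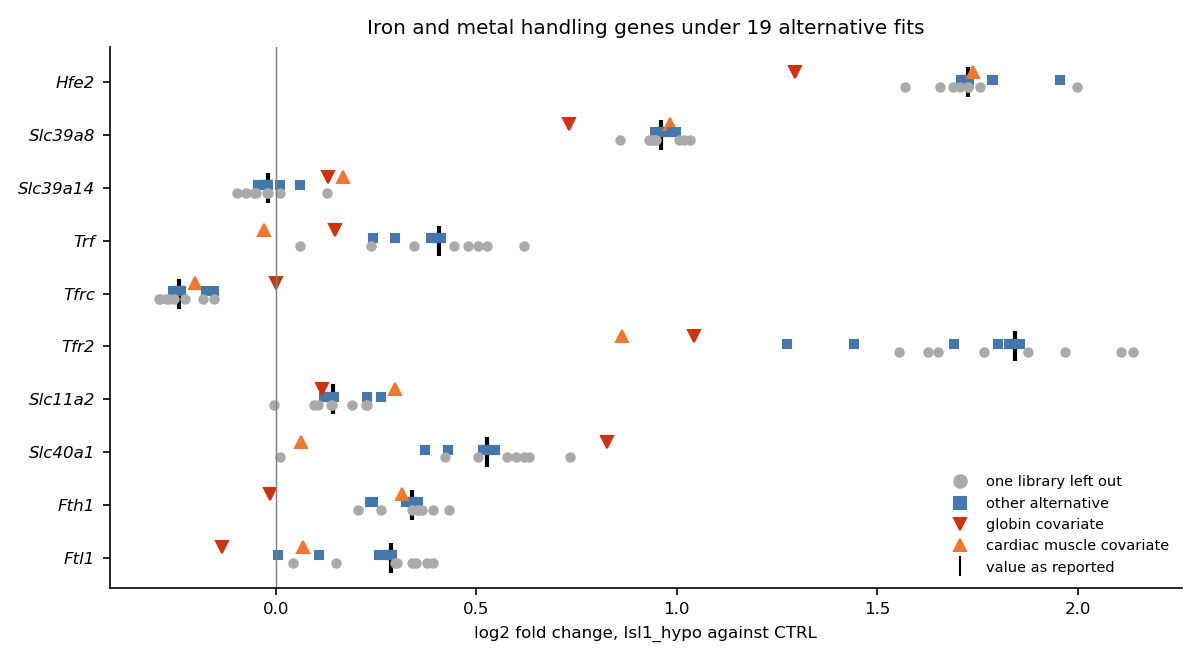
Log2 fold changes of the 10 genes in the reported fit (black bar) and in 19 alternatives; gray points leave out 1 library, squares change normalization, test, filter, transcript, block or the Y-linked covariate, and triangles add a globin or cardiac muscle covariate. Hfe2 and Slc39a8 stay to the right of 0 throughout, and Slc39a14, Trf, Tfrc, Slc11a2, Fth1 and Ftl1 reach or cross it.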

How the data were processed

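PolyA RNA of the OFT/RV of 8 single embryos was sequenced on BGISEQ-500. The authors aligned reads with STAR to mm9 and counted exon reads per RefSeq transcript with HOMER, on both strands; the deposited counts are whole and not normalized. RPKM was computed by the authors with edgeR from these counts and is used here for levels between genes. The deposited DESeq2 columns (mean normalized signal, log2 fold change and its error, a Wald score, p-values) hold the authors' own comparison and were not used. Versions are not given in the sources used here.

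Of 31507 transcripts the one with the highest mean count was kept for each of 20701 symbols; in Tfr2, where 2 transcripts tied, the one listed first was kept. Counts were filtered with filterByExpr, scaled by TMM and compared with edgeR's quasi-likelihood test (glmQLFit and glmQLFTest, edgeR 4.0.16 in R 4.3.3, Benjamini-Hochberg over 13769 genes, adjusted p under 0.05 as the threshold, no covariates). CPM carry the TMM scaling. Alternatives used DESeq2 1.42.0, limma-voom with sample weights (limma 3.58.1), other size factors, filters and transcripts, a replicate block, globin, cardiac muscle or Y-linked genes as covariates, and each library left out. The edgeR, DESeq2 and limma-voom fits were checked on simulated counts. These had a dispersion below the 0.0699 of the data and no differences in blood or sex, so the check was easier than the data. Standard errors and SD cover the spread between single embryos, counting error included; genes of few counts, above all Tfr2, are the least precise.

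The 10 genes and every list were chosen with earlier results of these data known. All 10 are named. For each role of the wider list, genes past the adjusted threshold were named, otherwise up to 2 with the smallest unadjusted p under 0.05. The rule also named the most abundant gene of each role by mean CPM over the 8 libraries. Slc25a37, Slc30a10 and Furin were chosen for values by library after these were seen, as were Bmp6, Hamp, Aco1 and Ireb2. For Hfe2, Slc39a8 and Tfrc the 5 genes of highest r were to be named; 1 of those for Tfrc is not reported here. Positions and stem-loop matches come from GENCODE vM1 on mm9, where Tfr2 is listed under its synonym Trfr2. Proteins and promoters were not used here.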

Additional observations from a re-analysis of the deposited data

Results flagged for a closer look

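In 2 of 22 groups of 4 libraries examined (each of the 10 genes and the globin share in both groups), the farthest library lay past Dixon's 95% limit for 4 samples; chance alone flags about 1.1 of 22. Slc39a14 in Isl1_hypo 3 was low, at 1.55 log2 CPM (2.88 CPM), where the other Isl1_hypo libraries lay between 2.18 and 2.30. Trf in the same library was high, at 5.48 log2 CPM (44.5 CPM), where the others lay between 4.33 and 4.50. Isl1_hypo 3 was also the library with the most globin, 2.44% of counts, and with the most Fth1 and Ftl1. It had the lowest macrophage sum of its group, 22.9 CPM, close to the 23.0 CPM of Isl1_hypo 2. Its endothelial sum, 635 CPM, was the lowest of all 8 libraries. Over the 8 libraries, with group means removed, the r of Slc39a14 was −0.33 with globin and 0.83 with macrophage markers, and that of Trf 0.22 and −0.69. With endothelial and cardiac muscle markers the r was 0.67 and 0.62 for Slc39a14 and −0.44 and −0.52 for Trf. The part of blood or of other cells in these values was not tested.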

How the results depend on the processing

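Of 190 values of the 10 genes under 19 alternatives, 160 kept their direction and side of the threshold, 19 kept the direction and lost the threshold, all of them of Hfe2 or Slc39a8, and 11 changed sign. Slc39a14 (−0.02) became 0.061 with limma-voom, 0.13 with the globin covariate, 0.17 with the cardiac muscle covariate and 0.011 with the Y-linked covariate, and ranged from −0.10 to 0.13 with 1 library left out. With the globin covariate Tfrc (−0.24) became 1.5e-05, Fth1 (0.34) −0.014 and Ftl1 (0.29) −0.14; with the cardiac muscle covariate Trf (0.41) became −0.029. Slc11a2 ranged from −0.0050 to 0.23 with 1 library left out. The cause of these changes was not tested.

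Genes called over all genes, 37 as reported, were 319 with DESeq2, 134 with limma-voom, 100 at an adjusted p under 0.10, 2 with the cardiac muscle and 2 with the Y-linked covariate, neither Hfe2 nor Slc39a8 in either, and 0 with the globin covariate. They numbered 4 to 48 with 1 library left out: 8, 5 and 4 without CTRL 1, 2 and 3, and 12 and 11 without Isl1_hypo 2 and 4. In the wider list the call of 0 became 1 with DESeq2, limma-voom and an adjusted p under 0.10, and stayed 0 to 0 with 1 library left out. The globin difference of 2.0 ranged from 1.67 to 2.50.

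Same-numbered libraries did not deviate together (correlations −0.02 to 0.02), so the numbers pair nothing. With the replicate block 0 genes passed edgeR's threshold, 1582 had an unadjusted p under 0.05, and Hfe2 stood at 1.79 and Slc39a8 at 0.97. Hfe2 fell short of the threshold without CTRL 1, 2 or 3 (1.66, 1.71, 1.57) or Isl1_hypo 1, 2 or 4 (1.73, 1.76, 1.69), and Slc39a8 without CTRL 1, 2 or 3 (1.01, 0.86, 0.94) or Isl1_hypo 2 or 4 (0.95, 0.94). Depth limits Tfr2 (11 to 76 counts) and lowly expressed genes of the wider list such as Hamp.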
